A study of Canis lupus familiaris with 5 samples.

Results

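The myosin heavy chain genes MYH6 and MYH7 and the fetal thin filament genes ACTA1 and TNNI1 were followed in dog heart muscle with and without congestive heart failure. Their members were all probe sets whose single gene symbol in the platform annotation was 1 of these 4 names. All 4 are among the 2416 genes named in this way. They had 9 of the 4653 probe sets of the array, 1 for MYH6, 2 for MYH7, 1 for ACTA1 and 5 for TNNI1. The table holds 5 arrays of total RNA from canine myocardium, 2 labelled Con and called control here, and 3 labelled Fail and called failing. Breed, age, sex, heart chamber, cause of failure and treatment are not given in the labels. For control 2a and failing 1a, 1b and 2a, RNA of 3 dogs had been pooled before the labelled copy was made, so dog-to-dog spread within a pool cannot be seen, and the source of control 1a is not described. The labels do not say whether failing 1a and 1b are separate pools, and p-values here reflect differences among these arrays, part of which may be technical.

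Myosin heavy chain is the motor of the thick filament. Heart muscle makes the faster alpha form from MYH6 and the slower, more economical beta form from MYH7. In small rodents the alpha form replaces the beta form in the ventricle after birth, and a return of the beta form under load is the textbook sign of the fetal gene program, whereas in the ventricles of large mammals the beta form predominates in adult life and the alpha form is mainly atrial. In the thin filament, fetal heart uses much skeletal alpha-actin (ACTA1) and the slow skeletal inhibitory troponin subunit (TNNI1), which give way to cardiac alpha-actin (ACTC1) and cardiac troponin I (TNNI3). In the gene order of the dog RefSeq annotation (assembly UU_Cfam_GSD_1.0), only the entry of the microRNA gene MIR208A separates MYH6 and MYH7. That order does not show whether MIR208A lies between or within these genes. The probe sets are annotated to human genes, and which dog transcripts they bind was not tested.

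The values are linear intensities on a scale common to the arrays and can lie below 0, where they have no logarithm and no fold. A reading below 0 is not above background on that array, and does not show that the transcript was absent. Of the 45 readings of the 9 probe sets, 15 lay below 0, with 7 of 18 on control and 8 of 27 on failing arrays. Of the 9 probe sets, 2 read below 0 on every array (MYH7 39095_at and TNNI1 HSPD2794_at), 3 on some (MYH7 HSPD29_s_at, TNNI1 HSPD64_i_at and HSPD64_s_at) and 4 on none. Over the array as a whole, 17.9% of probe sets other than array controls read below 0 on all 5 arrays. For the tests, log2 was taken after values under 20 had been set to 20 (the floor), and probe sets with a mean log2 intensity below the median of 7.13 were set aside. This left 2301 probe sets, 5 of them members (MYH6 38602_at, ACTA1 HSPD26_s_at and TNNI1 HSPD64_r_at, HSPD64_s_at and HSPD875_at).

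**Figure D1:**
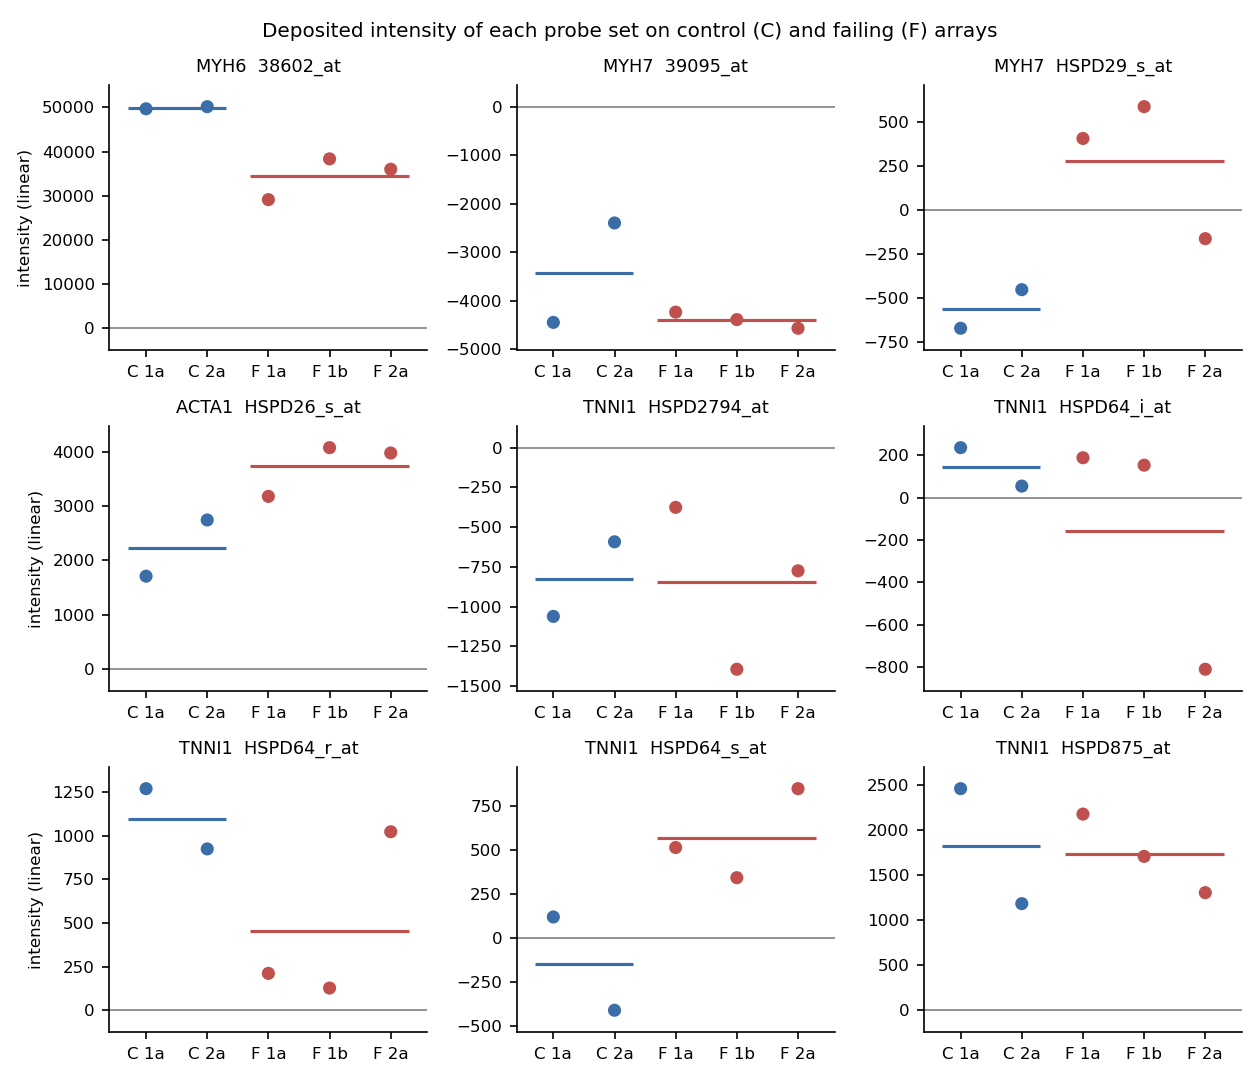
Linear intensity (vertical axis, each panel with its own range) of the 9 probe sets on control 1a and 2a (blue) and failing 1a, 1b and 2a (red); horizontal bars are group means and the grey line is 0. MYH6 lies lower and ACTA1 higher on all 3 failing arrays, while MYH7 39095_at and TNNI1 HSPD2794_at stay below 0 on all 5.

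Failing arrays were set against control arrays to ask whether these isoform genes differ in heart failure. MYH6 signal was dimmer and ACTA1 signal brighter on every failing array than on either control array, by 0.686-fold and 1.72-fold. One probe set of MYH7 and 1 of TNNI1 also read higher on all 3 failing arrays, from control readings near or below 0. The other 5 probe sets of MYH7 and TNNI1 overlapped between the groups. No member passed the test adjusted over all probe sets (limma, Benjamini-Hochberg).

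In that fit, 2 of 2301 probe sets were called at an adjusted p under 0.05, or 0.0869% of those tested, and both were higher. At an unadjusted p under 0.05, 2 of the 5 tested members were higher (6.13% of all tested) and 1 was lower (3.35% of all tested). Of the 2 higher ones, TNNI1 HSPD64_s_at passed the brightness filter only through the failing arrays, where it is high, so its place in this count supports nothing. For MYH6 and ACTA1 the unadjusted limma p moved with the scaling. It was 0.0239 and 0.108 with arrays scaled to their 75th percentile, and 0.125 and 0.072 after quantile normalization. In linear intensity the groups did not overlap in 3 of the 9 members with failing higher, against 13.1% of all probe sets, and in 1 with failing lower, against 13.4%. The members were picked with earlier results of these arrays known, so these counts are a description. The two-sided exact permutation test of linear means cannot go below 0.2 with 2 arrays against 3. The exact permutation p was 0.2 for the 4 members whose groups did not overlap (0.45 after adjustment over the 9 members), with all failing arrays on 1 side of both controls.

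MYH6, the alpha heavy chain, is measured by 38602_at. Its intensity was 49704 on control 1a and 50189 on control 2a, and 29129, 38368 and 36014 on failing 1a, 1b and 2a. The control arrays were nearly equal, all failing arrays lay below them, and failing 1a was the lowest. The means were 49947 ± 343 (SD, n = 2) and 34504 ± 4801 (SD, n = 3). The log2 difference was −0.54 ± 0.17 (SE), with a 95% interval from −0.98 to −0.11 (limma adjusted p = 0.446). Under quantile normalization, which gives every array the same distribution of intensities, the difference shrank to −0.29 (adjusted p = 0.721).

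MYH6 lies at the bright end of the arrays. Of the 37 tested probe sets with a geometric mean intensity above 20000, 28 had a log2 difference below 0, with a median of −0.32 against 0.11 over all 2301. Among these bright probe sets 19 lay lower on every failing array, and 14, MYH6 included, had a difference at or below that of MYH6. The highest intensity of any probe set was between 126904 and 130504 on the control arrays and between 56032 and 88564 on the failing arrays. The part of this shared dimming in the MYH6 difference was not tested.

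**Figure D2:**
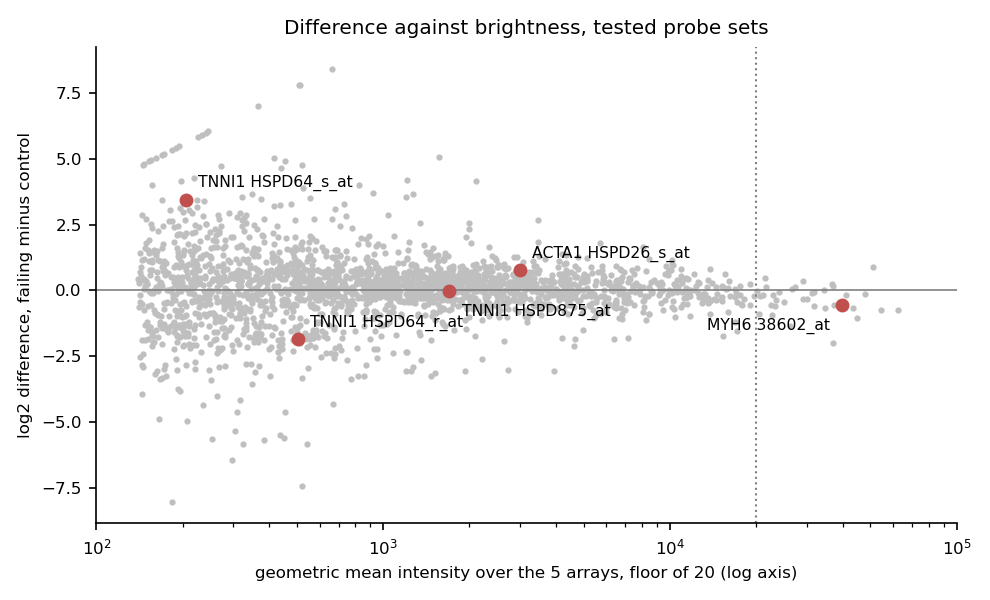
Log2 difference, failing minus control (vertical axis), against the geometric mean intensity over the 5 arrays (horizontal log axis) for the 2301 tested probe sets (grey), with the 5 tested members in red; the dotted line marks 20000. MYH6 sits among 37 probe sets right of that line, of which 28 lie below 0.

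The beta heavy chain, MYH7, had 2 probe sets with unlike readings, and neither was bright enough for the fit. On 39095_at the intensity was −4448 and −2398 on control 1a and 2a, and −4237, −4391 and −4570 on failing 1a, 1b and 2a. On each array at most 2.63% of probe sets other than array controls read as low. The groups overlapped, with means of −3423 ± 1449 (SD, n = 2) and −4399 ± 166 (SD, n = 3) and an exact permutation p of 0.6. Without control 2a the linear difference turned from −976 to 49.1. This probe set therefore gives no measure of MYH7 transcript on any array.

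On HSPD29_s_at, the other MYH7 probe set, the control arrays read −674 and −454. The failing arrays read 405 (1a), 585 (1b) and −165 (2a). All failing readings lay above both control readings, but failing 2a also stayed below 0. The linear difference was 839, from −564 ± 155 (SD, n = 2) to 275 ± 391 (SD, n = 3), and it was between 684 and 1059 when any 1 array was left out. Both control readings are below 0, so no fold is given. Of all probe sets other than array controls, 1.78% had this form, both controls below 0 and at least 2 failing arrays above 0 without overlap. In the naming of these arrays the letter s before "at" marks a set whose probes can be shared by several related transcripts, so HSPD29_s_at may read more than MYH7.

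A ratio of beta to alpha signal within an array could not be formed, because no MYH7 probe set was above the floor on all arrays. Nor can the amounts of these genes be ranked, since the brightness of different probe sets does not give relative abundance. Human alpha and beta heavy chains are close copies, and signal from 1 gene's transcript on the other's probes cannot be told apart here.

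Among the thin filament genes, ACTA1 encodes the skeletal muscle actin that is also abundant in fetal heart. Its single probe set, HSPD26_s_at, read 1712 and 2745 on control 1a and 2a, and 3179, 4075 and 3977 on failing 1a, 1b and 2a. All failing arrays were above both controls, with failing 1a nearest to control 2a. The means were 2229 ± 731 (SD, n = 2) and 3744 ± 491 (SD, n = 3), with a log2 difference of 0.78 ± 0.30 (SE) and a 95% interval from 0.03 to 1.53 (limma adjusted p = 0.512). Without control 1a, the lowest reading, the difference was 0.44 (adjusted p = 0.988). The actins differ by few residues and this too is a set of shared probes, so signal from other actin transcripts cannot be told apart from that of ACTA1.

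The partner that replaces it, ACTC1, was not analysed here, so ACTA1 could not be set against cardiac actin. The other actin genes on the array went in several directions. For ACTG1, cytoplasmic gamma-actin, HSPD806_f_at went from 6910 ± 620 (SD, n = 2) to 13719 ± 3287 (SD, n = 3), a log2 difference of 0.96 ± 0.26 (SE, limma adjusted p = 0.344), higher on all 3 failing arrays. Its probe sets 34160_at and HSPD806_r_at had 0.28 and −0.08 with overlapping groups, the latter on floored data since failing 2a lay below 0. The 3 probe sets of ACTB, cytoplasmic beta-actin, had −0.07, 0.50 and 0.86 and overlapped. The smooth muscle actin genes ACTA2 and ACTG2 read at or below 77 on control and 121 on failing arrays, and below 0 on 3 and 4 of the 5 arrays.

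TNNI1 encodes the troponin I of slow skeletal fibres and of fetal heart. Its 5 probe sets did not give 1 answer: the failing mean was above control for 1 and below for 4, and the groups were apart only for the former. The brightest, HSPD875_at, read 2463 and 1185 on control 1a and 2a, and 2180, 1710 and 1307 on failing 1a, 1b and 2a. Both extremes came from the control arrays, and the failing arrays lay between them. The log2 difference was −0.01 ± 0.44 (SE), with a 95% interval from −1.11 to 1.09 (limma adjusted p = 0.995), an interval that spans both directions.

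Probe sets HSPD64_i_at, HSPD64_r_at and HSPD64_s_at share a target name but not a pattern. On HSPD64_s_at, the set with shared probes, the arrays read 119 and −413 (control 1a and 2a) and 516, 343 and 851 (failing 1a, 1b and 2a). Its log2 difference of 3.44 ± 1.19 (SE, limma adjusted p = 0.475) was made on floored data, since control 2a lies below the floor, so it stands without a fold. The mean floored log2 intensity of this set was 9.06 on failing and 5.61 on control arrays. On HSPD64_r_at the readings were 1270 and 924 on control and 211, 127 and 1023 on failing 1a, 1b and 2a. Failing 1a and 1b were far below control and failing 2a lay between the controls, so the groups overlapped (log2 difference −1.84 ± 1.01 SE, limma adjusted p = 0.642, and −2.72 without failing 2a).

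The remaining TNNI1 probe sets were too dim to be tested. HSPD64_i_at read 236 and 54.2 on control and 188, 153 and −811 on failing arrays, with only failing 2a outside the control range. HSPD2794_at read −1061 and −592 on control and −375, −1393 and −774 on failing arrays, all below 0. Exact permutation p-values of the linear means were 0.8 and 1. TNNI3, the adult partner, was not analysed here, so the fetal share of troponin I could not be followed.

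**Figure D3:**
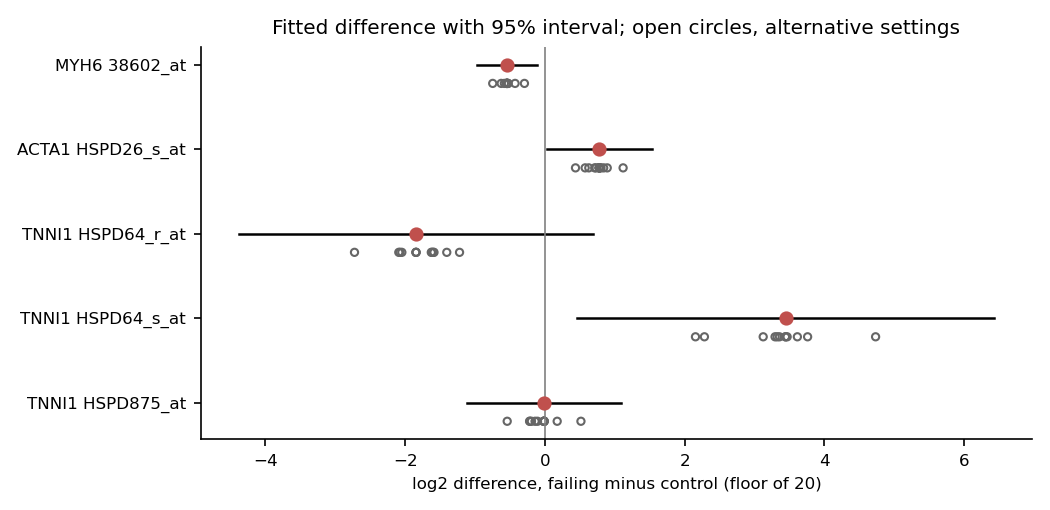
Log2 difference, failing minus control (horizontal axis), of the 5 tested probe sets: red points are the fit, black lines its 95% intervals and open circles the values under other processing settings or without 1 array. MYH6 stays left of 0 and ACTA1 right of it in all settings shown, and the 3 TNNI1 probe sets fall on opposite sides.

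The median log2 difference of all tested probe sets moved with the scaling, from 0.11 as deposited to −0.10 with arrays scaled to their 75th percentile and −0.05 after quantile normalization. Relative to that median, MYH6 had −0.65, −0.65 and −0.24 and ACTA1 0.67, 0.68 and 0.68 in the same order. TNNI1 HSPD64_s_at had 3.34, 3.39 and 3.37, and HSPD64_r_at −1.95, −1.95 and −2.04. The directions of MYH6, ACTA1 and these TNNI1 probe sets were the same under all 3 scalings.

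Across the rest of the sarcomere, no probe set of the lists described here was called at an adjusted p under 0.05. In the list of cardiac thick filament and M band genes, 7 of 15 probe sets were tested, 4 below 0 and 3 above, with a median log2 difference of −0.55 against 0.11 over all tested probe sets. Of these 7, 2 were lower on every failing array (11.5% of all tested probe sets were) and 0 higher. The first was MYL3 HSPD445_s_at, for the ventricular essential light chain that sits on the myosin neck. It went from 28523 ± 3922 (SD, n = 2) to 19448 ± 2608 (SD, n = 3), a log2 difference of −0.55 ± 0.19 (SE, limma adjusted p = 0.466). After quantile normalization it too shrank, to −0.27.

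The second was TTN 40795_at, for the giant elastic protein titin, with −0.62 ± 0.24 (SE, limma adjusted p = 0.520). Other tested TTN probe sets had differences of 0.61, 0.69 and 0.08 with overlapping groups, the last of them below 0 under the other 2 scalings. MYL2, the ventricular regulatory light chain, had −0.67 ± 0.37 (SE) and overlapped. For the M band gene MYOM1, HSPD1128_i_at read −350 and −208 on control and 1165, 1219 and −92 on failing 1a, 1b and 2a. MYOM2 read below 0 on all 5 arrays.

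Adult thin filament genes were represented by TNNC1 and TPM1, with 4 tested probe sets and a median of −0.05. TNNC1 encodes the calcium sensor shared by cardiac and slow skeletal troponin. Its bright probe set HSPD96_at read 33694 and 34288 on control and 33092, 33588 and 37213 on failing arrays, a log2 difference of 0.02 ± 0.14 (SE, limma adjusted p = 0.969). That sign turned under 75th percentile scaling (−0.18). It is among the bright probe sets and, unlike MYH6, overlapped between groups. The main TPM1 probe set, for alpha-tropomyosin, had −0.04 and also changed sign with the scaling, to 0.15 after quantile normalization.

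Of 40 probe sets for skeletal muscle isoforms, 19 were tested, 14 above 0 and 5 below, with a median of 0.37 against 0.11 over all tested. Of the 19, 4 were higher on every failing array and 1 lower, against 18.3% and 11.5% of all tested. The 1 lower, MYBPC1 40503_at, passed the brightness filter only through the control arrays, where it is high, so its place in this count supports nothing. Of the 40, 11 read at or below 0 on every array. In this list TNNT1 encodes slow skeletal troponin T, which like TNNI1 is expressed in fetal heart. Its probe set HSPD30_s_at read −1471 and −406 on control 1a and 2a, and 1412, 917 and 1121 on failing 1a, 1b and 2a. The controls were below 0 and the failing arrays above it, a form found in 1% of all probe sets. Its log2 difference of 5.82 ± 0.86 (SE, limma adjusted p = 0.165) is on floored data with both controls at the floor, which fixes its size. This probe set passed the brightness filter only through the failing arrays, where it is high. Its p-value and its place among the 4 therefore support nothing. Another TNNT1 probe set, HSPD10784_at, had 0.44 ± 0.66 (SE) and overlapped, and HSPD25323_at read below 0 throughout.

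Of the fast skeletal isoforms, TNNC2 HSPD27114_f_at, for fast troponin C, read 2006 and 1814 on control and 2874, 3170 and 4102 on failing arrays (log2 difference 0.81 ± 0.26 SE, limma adjusted p = 0.452). Its other 2 probe sets read at or below 124. ACTN3 HSPD2315_f_at, for the alpha-actinin of fast fibres, read 1302 and 1564 on control and 2431, 6971 and −1325 on failing arrays, and both other ACTN3 probe sets read at or below 34. The heavy chain gene MYH1 read below 0 on most arrays at each probe set, as did MYH8 at HSPD12539_f_at. The other MYH8 probe set, X51592_s_at, read 329 and 220 on control and 566, 529 and 150 on failing arrays (0.40 ± 0.92 SE), with overlap. The embryonic heavy chain MYH3 had −0.35 ± 1.58 (SE). MYH2 Z32858_s_at read 262 and 227 on control and 353, 353 and 510 on failing arrays.

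**Figure D4:**
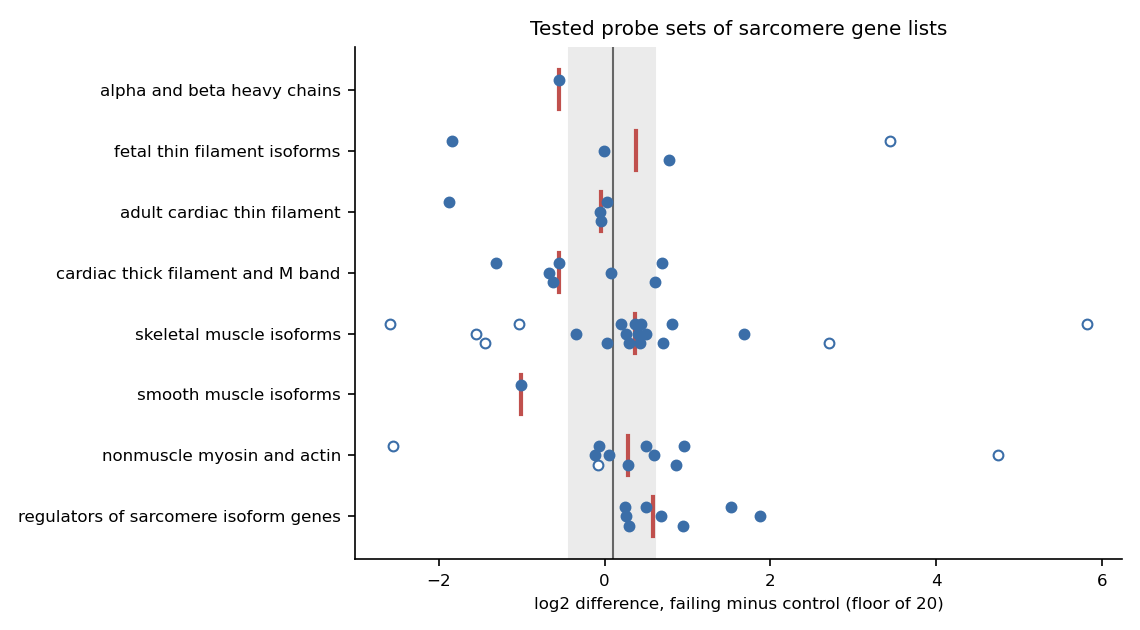
Log2 difference, failing minus control (horizontal axis), of the tested probe sets in 8 gene lists; filled points have all arrays at or above the floor of 20, open points have at least 1 below, red bars are list medians, and the grey line and band are the median and quartiles of all 2301 tested probe sets. The thick filament list has its median at −0.55, and the 8 regulator probe sets all lie above 0.

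In nonmuscle myosin and actin genes, 11 tested probe sets had a median of 0.28, with 3 higher and 1 lower on every failing array, against 18.3% and 11.5% of all tested. Of the 3 higher, MYL12A HSPD1768_f_at read 262 and −326 on control and 2339, 2978 and 1043 on failing arrays. It passed the brightness filter only through the failing arrays, so its place in this count supports nothing. MYH9, the nonmuscle heavy chain, went from 3037 ± 352 (SD, n = 2) to 4591 ± 583 (SD, n = 3), a log2 difference of 0.59 ± 0.22 (SE, limma adjusted p = 0.503), opposite in sign to MYH6. TAGLN, the only tested gene of the smooth muscle isoform list, had −1.01 ± 0.34 (SE). MYL4, the light chain of atrium and fetal ventricle, read −51.2 and 13.7 on control and −106, −68.2 and 293 on failing arrays, too dim to be tested.

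Genes known to regulate sarcomere isoforms had 8 of 18 probe sets bright enough to be tested. These were from MEF2C, MEF2D, RXRA and YY1, 4 of them from MEF2C alone, and SRF, TEAD4, PURA, MEF2A and PPP3CA were too dim. All 8 tested probe sets had a log2 difference above 0 under the 3 scalings, where 56.1% of all tested probe sets did as deposited. Their median was 0.59 against 0.11 over all tested, and 4 were higher on every failing array, against 18.3% of all tested. These 4 were RXRA HSPD7073_s_at and MEF2C HSPD16384_at, HSPD16384_g_at and HSPD36231_r_at, so they stand for fewer genes than probe sets. On HSPD36231_r_at control 2a (440) and failing 1b (441) were almost equal, as were control 2a (4269) and failing 1a (4274) on HSPD7073_s_at. MEF2C HSPD36231_s_at had 0.25 with overlapping groups. MEF2C encodes a muscle transcription factor. Its probe set HSPD16384_g_at read 1593 and 1346 on control and 2386, 2258 and 2377 on failing arrays, a log2 difference of 0.68 ± 0.26 (SE, limma adjusted p = 0.503). Its partner set HSPD16384_at had 0.94 ± 0.44 (SE) and was also higher on every failing array.

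Patterns most like the members' were found by the root mean square difference of the 5 centred log2 values, over 1535 probe sets with 1 symbol and all arrays above the floor (1534 for TNNI1). Nearest to MYH6 were FABP3 (0.0436), the heart fatty acid carrier, ATP5MC3 (0.0649), a c-ring gene of ATP synthase, and TRDN (0.0751), triadin of the calcium release unit. Nearest to ACTA1 were GNB1 (0.106), SET (0.128) and HNRNPD (0.135). Nearest to TNNI1 HSPD875_at were RIPOR1 (0.0763), EIF3G (0.0800) and LGALS1 (0.144). With 5 arrays such likeness is a description only. For MYH6 it amounts to equal controls with failing 1a lowest. FABP3 HSPD5243_g_at, for example, read 2535 and 2539 on control and 1596, 2062 and 1894 on failing arrays.

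The 3′ to 5′ ratio of the GAPDH control probe sets was 2.15 to 2.32 on control and 1.32 to 1.44 on failing arrays. The same ratio for actin overlapped between the groups, with 0.0899 to 0.108 and 0.0873 to 0.205. Failing 2a stood apart, with correlations across tested probe sets of 0.511 to 0.533 with the other arrays, where all other pairs had 0.666 to 0.798. These correlations run over probe sets, which are not independent replicates. Without failing 2a the differences of MYH6 and ACTA1 were −0.58 and 0.73. Cardiomyocyte markers gave summed intensities of 113977 to 123304 on control and 95834 to 108019 on failing arrays, with 0 of 14 probe sets at or below 0 on every array. Of 13 tested cardiomyocyte probe sets, 6 had a log2 difference above 0 and 7 below (median −0.05). Of these 13, 1 was higher on every failing array and 3 lower, against 18.3% and 11.5% of all tested. CKM HSPD4319_r_at, 1 of the 3 lower, passed the brightness filter only through the control arrays, so its place in this count supports nothing. Fibroblast marker sums were 4542 to 6050 and 5671 to 7178, with a VIM reading of 3560 in the sum of control 2a (−1125 on control 1a). Of 7 tested fibroblast probe sets, 5 had a log2 difference above 0 and 2 below (median 0.50). Of these 7, 2 were higher on every failing array and 0 lower, against 18.3% and 11.5% of all tested. The 2 were COL3A1 (2.36 ± 0.44 SE, limma adjusted p = 0.278) and COL1A2 (1.28 ± 0.53 SE, limma adjusted p = 0.522). Skeletal muscle marker sums were 6232 to 6288 and 7326 to 12423, with 7 of 21 skeletal probe sets at or below 0 on every array. The 12423, on failing 1b, includes 6971 from ACTN3 HSPD2315_f_at, which read −1325 on failing 2a. Of 6 tested skeletal probe sets, 4 had a log2 difference above 0 and 2 below (median 0.57). Of these 6, 3 were higher on every failing array and 1 lower, against 18.3% and 11.5% of all tested. Blood marker sums were 4982 to 6144 and 4610 to 9383. Smooth muscle marker sums were 30559 to 53590 and 60643 to 85559, mostly from DES, which cardiomyocytes also make abundantly. Among the other smooth muscle markers, TAGLN was lower and LMOD1 HSPD2313_r_at higher on every failing array (log2 differences −1.01 and 0.95). CNN1 and the other LMOD1 probe sets read below 0 on all 5. Endothelial sums were 9509 to 14125 and 7706 to 12596, though 5 of 6 tested endothelial probe sets had a log2 difference above 0 (median 0.99). Of these 6, 3 were higher on every failing array and 1 lower, against 18.3% and 11.5% of all tested. CDH5, 1 of the 3 higher, passed the brightness filter only through the failing arrays, so its place in this count supports nothing. The 1 lower, ENG HSPD34099_r_at, read 5158 and 8319 on control and 1598, 1488 and 523 on failing arrays. The part of these differences in the member values was not tested, and in bulk tissue fewer cells of a type and less RNA per cell cannot be told apart.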

How the data were processed

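The members and gene lists were chosen with earlier results of these data known. Linear intensities of 5 arrays were used as deposited by the authors. How they were made is not given in the sources used here, and columns of other samples numbered 0. The trimmed mean of every array (lowest and highest 2% left out) was 800, so no scaling was added. Of 4653 probe sets, 52 were array controls and stayed out of the tests. Of the other 4601, 3724 had 1 gene symbol, 72 several and 805 none, and genes were named only from the first kind (MYLPF as MYL11).

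Values under 20 were set to 20 before log2 was taken. The log2 intensities were filtered at the median of the mean log2 (7.13) and fitted per probe set (limma 3.58.1 under R 4.3.3, lmFit and trended eBayes, two-sided tests, Benjamini-Hochberg over 2301 probe sets). The fit was checked on simulated data with differences larger than those of MYH6 and ACTA1. The check does not cover differences of their size. Linear means of each member were also compared by two-sided exact permutation. Alternatives were another floor, a generalised log2, other scalings, no filter, 1 probe set per gene, averaging failing 1a and 1b, a replicate block, no intensity trend and leaving out each array. Named were all members, some genes of the sarcomere lists and of other lists, and the 3 nearest patterns per member. Isoform ratios within arrays were planned, and no pair of probe sets allowed one. No sequences of the probe sets were used here, and the number of arrays limits the precision.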

Additional observations from a re-analysis of the deposited data

How the results depend on the processing

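None of the 5 tested members passed the adjusted threshold in the main fit or under any alternative that could be fitted. MYH6 stayed below 0 (−0.75 to −0.29, adjusted p 0.237 to 0.900) and ACTA1 above 0 (0.44 to 1.12, adjusted p 0.314 to 0.988) under all 14. TNNI1 HSPD64_r_at was −2.72 to −1.22 and HSPD64_s_at 2.16 to 4.73. The latter was too dim for the fit without failing 2a, and both lack the fit with 1 probe set per gene. With 1 array left out, TNNI1 HSPD875_at ranged from −0.54 to 0.52 (0.52 without control 1a, 0.18 without failing 2a). In the same way the linear differences ranged from −2001 to 49.1 for MYH7 39095_at, from 684 to 1059 for HSPD29_s_at, from −257 to 252 for TNNI1 HSPD2794_at and from −474 to 25.6 for HSPD64_i_at. HSPD2794_at also turned from −21.2 to 89.2 with 75th percentile scaling and to 267 after quantile normalization; the cause was not tested.

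Of all probe sets, the 2 called became 4 with a floor of 100, 6 without the filter, 6 without the intensity trend, 1 with 1 probe set per gene, 0 with failing 1a and 1b averaged (146 at an unadjusted p under 0.05 in limma) and 0 with the replicate block (315). Leaving out 1 array gave 0 to 21, the 21 without failing 2a, and 0 (152, 162 and 152 at an unadjusted p under 0.05 in limma) without control 1a, failing 1a or failing 1b. Control and failing arrays share numbers in their titles, and the labels do not say what a number marks. Deviations of same-numbered arrays correlated at 0.011 to 0.051. With 2 control arrays these values are mirrored in sign for the other pairings, so they cannot decide whether a number marks a shared source. With the replicate block MYH6 had −0.53 and ACTA1 0.84. Isoform ratios within arrays gave no value under any setting.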
